A study of Mus musculus with 4 samples.

Results

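The T cells of tumours grown from preSC cells transplanted into mice were described here, in 2 single-cell libraries. A barcode, the tag of 1 droplet, was kept when it held at least 300 genes and at most 15% of its unique molecular identifiers (UMIs, each standing for 1 captured RNA molecule) came from mitochondrial genes. It was taken as a T cell when Cd3d, Cd3e, Cd3g and Trac summed to at least 2 UMIs and Cd79a and Lyz2 had none. By this rule 1384 of the 34605 kept allograft barcodes were T cells, 57 in the library labelled preSC_CracdKO and 1327 in the library labelled preSC_WT. The whole series held 55695 kept barcodes of 56220 deposited.

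T cells recognise peptides on MHC molecules through a receptor whose signal passes through the CD3 chains. Cd8 T cells read MHC class I and can kill the presenting cell with granzymes and perforin, Cd4 T cells direct other immune cells, and regulatory T cells, a mostly Cd4 lineage made by the factor Foxp3, restrain responses. Naive and memory cells keep Lef1 and Tcf7 active, and lose much of these RNAs as they become effector cells that release chemokines and interferon gamma.

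The study compared small cell lung cancer models with and without Cracd, a gene for an inhibitor of actin capping. The allograft samples were both grown from the preSC mouse cell line, 1 with the genotype CracdKO and 1 with the genotype WT. The lung samples, used here only for comparison, are named CRPR2 and RPR2, and their labels give no alleles, ages or sex. For the allografts the labels give no host strain, number of transplanted cells, time of growth or number of animals, so it is not known which T-cell compartment the hosts had.

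Each group was 1 library, so no difference between groups has a replicate check, no test was run, and every 95% interval covers counting error only. The 4 libraries summed to between 42592323 and 110576113 UMIs, with 110576113 in preSC_CracdKO and 93376185 in preSC_WT. T cells were shallow, with a median of 2035 UMIs in preSC_CracdKO and 1323 UMIs in preSC_WT. The allograft libraries shared 79 barcode sequences, none of them a T cell in both. The targeted gene, listed as C530008M17Rik (chromosome 5, 76656512 to 76873554, mm10), went against the label: it was found in 35.5% of kept barcodes (85.8 CPM, the UMIs of a gene scaled to a fixed total) of the library labelled preSC_CracdKO and in 2.23% (6.01 CPM) of preSC_WT. A 3' tag can lie outside a deleted stretch, so this value checks no deletion, and the library is named by its label only. No T cell with little tumour RNA held a UMI of it (0 of 37 in preSC_CracdKO and 0 of 1101 in preSC_WT).

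T cells made up 0.353% of kept barcodes in the library labelled preSC_CracdKO (95% exact binomial interval 0.268 to 0.457) and 7.19% in preSC_WT (6.82 to 7.57), a 20.3-fold lower share in preSC_CracdKO. Other immune cells chosen by like rules were also scarcer there: B cells, with at least 2 UMIs of Cd79a, were 0.440% in preSC_CracdKO and 4.63% in preSC_WT, 10.5-fold lower. Barcodes with at least 2 UMIs of Lyz2, a lysozyme of macrophages and neutrophils, were 0.446% in preSC_CracdKO and 2.86% in preSC_WT, 6.41-fold lower. By the T-cell rule CRPR2 held 919 T cells (7.68%) and RPR2 held 4653 (51.0%). Of the 4653 in RPR2, 66.8% held a UMI of the thymocyte genes Rag1, Rag2, Dntt or Ptcra. By share of T cells preSC_WT stood close to CRPR2 and preSC_CracdKO below every other library. How many cells of a tumour were T cells, and how many survived dissociation, cannot be told apart from these shares.

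Many of these barcodes also carried tumour RNA. Over 5 neuroendocrine and epithelial tumour markers, among them Calca, Chga, Syp and Epcam, 20 of 57 T cells in preSC_CracdKO (35.1%) and 226 of 1327 in preSC_WT (17%) had more than 2 UMIs. These barcodes were deep, with a median of 9448.5 UMIs in preSC_CracdKO and 6005 UMIs in preSC_WT, and held 78.3% and 50.2% of all T-cell UMIs of those libraries. In preSC_CracdKO they were also poor in T-cell RNA: a UMI of Trbc1 or Trbc2, the constant chains of the beta receptor, was found in 6 of the 20 with tumour RNA and in 33 of the 37 without. In preSC_WT it was found in 187 of 226 with tumour RNA and in 945 of 1101 without. With at most 2 tumour-marker UMIs, called low in tumour RNA from here on, T cells were 0.229% of kept barcodes in preSC_CracdKO (0.161 to 0.316) and 5.96% in preSC_WT (5.62 to 6.31), 26.0-fold lower in preSC_CracdKO.

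**Figure D1:**
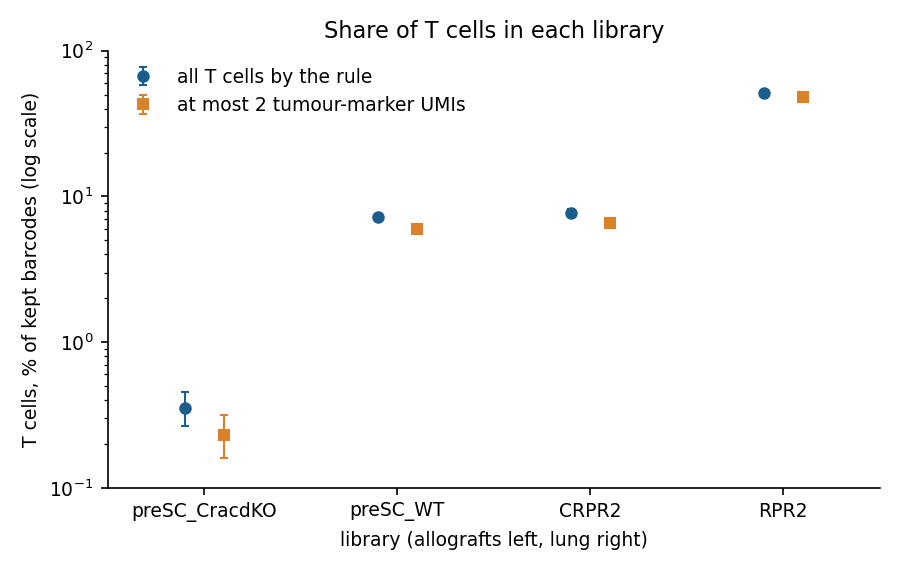
Share of T cells among kept barcodes of each library, in percent on a log scale, for all T cells by the rule (circles) and for those with at most 2 tumour-marker UMIs (squares), with exact 95% binomial intervals. preSC_CracdKO lies at 0.353% and 0.229%, below preSC_WT at 7.19% and 5.96%, CRPR2 at 7.68% and RPR2 at 51.0%.

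The rule's threshold sat differently in the libraries. Barcodes just outside it, with exactly 1 UMI of the 4 genes, numbered 227 in preSC_CracdKO and 364 in preSC_WT. In preSC_CracdKO 93.0% of them held tumour RNA, 93.4% had their UMI in Cd3g and 3.08% held Trbc2, while in preSC_WT 28.6% held tumour RNA and 49.5% held Trbc2. Just inside it, with exactly 2 UMIs, 22 barcodes of preSC_CracdKO held Trbc2 in 40.9% and 318 barcodes of preSC_WT held it in 67.6%. The 4 genes themselves, given as a description, were found in T cells of preSC_WT in 80.3% (Cd3d), 35.4% (Cd3e), 77.6% (Cd3g) and 45.4% (Trac) of cells, and Lef1 in 25.2%. B cells of preSC_WT, which had a median of 898 UMIs and were chosen to hold none of the 4, held Trbc2 in 0.351% and Lef1 in 1.05%. The T cells of preSC_WT held them in 77.5% and 25.2%, so the T-cell label fitted these markers in that library. In preSC_CracdKO 13 of the 57 met the rule by Cd3g alone, 11 of them among the 20 with tumour RNA, against 66 of 1327 in preSC_WT. Trac, Trbc1 or Trbc2 was found in 41 of the 57, so the label is less sure in preSC_CracdKO. Of the 12 lists of markers of other cells, beside the tumour markers, B-cell genes were found in 111 preSC_WT T cells, natural killer genes (Klrb1c, Ncr1, Klre1 and Klra8) in 102, endothelial genes in 98 and fibroblast genes (Col1a1, Col3a1, Dcn and Pdgfra) in 74, with Cd79a at 0 by the rule. Their part in the results below was not tested.

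Among T cells of preSC_WT with a coreceptor UMI Cd8 outnumbered Cd4, and most of the T cells held RNA of the granule protein Nkg7. A UMI of Cd8a or Cd8b1, the chains of the Cd8 coreceptor (chromosome 6, 71373427 to 71379173 and 71322788 to 71337494), without Cd4 was found in 522 of 1327 (39.3%, 36.7 to 42.0), and a UMI of Cd4 without Cd8 in 100 (7.54%, 6.17 to 9.09). Cd4 and Cd8 UMIs together were found in 2 cells, and 703 (53.0%) held neither. Nkg7 (chromosome 7, 43437073 to 43438249), was found in 796 (60.0%, 57.3 to 62.6), and Foxp3 (chromosome X, 7573644 to 7595245) in 20 (1.51%, 0.923 to 2.32). Among preSC_WT B cells Cd4, Cd8a and Foxp3 were at 0 of 855 and Cd8b1 and Nkg7 in 1 cell each, so these shares stood above the background of free RNA.

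The shares depended on how deeply each cell was read. Thinned to 500 UMIs, a depth that left out no T cell, the Cd8 subset was 19.0%, the Cd4 subset 2.19%, Foxp3 0.603% and Nkg7 38.2% of preSC_WT T cells. The median depth was 1393.5 UMIs for Cd8 cells, 1712 for Cd4 cells and 1226 for those with neither, so a cell with no UMI of Cd4 or Cd8 cannot be called negative. Nkg7 was found in 438 of the 522 Cd8 cells and in 32 of the 100 Cd4 cells. Over the receptor chains, 409 preSC_WT T cells held both Trbc1 and Trbc2, 619 only Trbc2, 104 only Trbc1 and 195 neither.

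**Figure D2:**
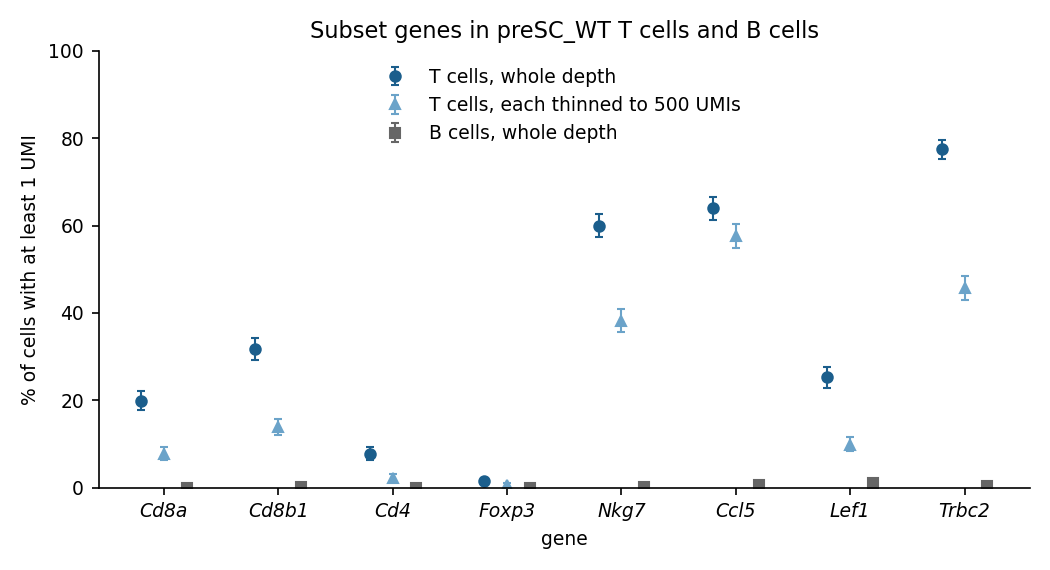
Share of preSC_WT T cells (n = 1327) and B cells (n = 855) with at least 1 UMI of each gene, with exact 95% binomial intervals, at whole depth and, for T cells, with each cell thinned to 500 UMIs. Nkg7 lies at 60.0% and, thinned, 38.2% of T cells, Cd8b1 above Cd4 and Foxp3, and no gene shown exceeds 1.05% of B cells.

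Cd8 cells of preSC_WT carried the RNAs of killing and of chemokines, and Cd4 cells those of costimulation. A gene was read only where its higher group had 50 CPM and 10 UMIs, and called from a 2-fold difference in CPM on; Cd4, Cd8a and Cd8b1 were left out. By this, 116 of 4112 genes were called higher (2.82%) and 206 lower (5.01%) in Cd8 than in Cd4 cells. With log2 ratios centred on the median of the genes tested the split was 157 higher and 140 lower, and with CPM taken outside mitochondrial and ribosomal protein genes 214 and 245. The balance turned round to 579 higher and 88 lower with each cell thinned to 1000 UMIs, 993 and 122 with cells called positive from 2 UMIs on, and 450 and 300 with genes read from 20 CPM on. Of the 22 effector and cytotoxic genes that passed this filter of 26 listed, 14 were higher and 1, S100a4, lower, and the list's median log2 ratio was 2.45, against −0.03 over all genes measured. In cells low in tumour RNA 16 of 24 were higher with a median of 2.19, beside 8.65% of all genes higher and 12.1% lower.

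Ccl5, a chemokine that draws T cells and monocytes, was found in 466 of 522 Cd8 cells (9506 CPM) and 25 of 100 Cd4 cells (621 CPM), 15.3-fold higher (13.2 to 17.9). Gzma, a granzyme, was found in 112 Cd8 cells (880 CPM) and in no Cd4 cell, at least 81.7-fold higher against a floor of 3 UMIs over the group. Gzmb, the granzyme that starts caspase cleavage, was found in 155 Cd8 cells (372.5 CPM) and 2 Cd4 cells (7.18 CPM), 51.9-fold higher (14.3 to 429.7). Prf1, the pore protein perforin, was in 66 Cd8 cells (59.9 CPM) and in no Cd4 cell, at least 5.56-fold higher. Gzma and Prf1 were seen in Cd8 and not in Cd4 cells. By 3 over the number of cells, 0 of 100 Cd4 cells allows about 3% of cells with a UMI. This limits detection at this depth and not expression. Killer receptor genes followed: Klrd1 (CD94) was found in 141 Cd8 cells and 1 Cd4 cell, Klrk1 (NKG2D) in 111 and 1, and Klrc1 (NKG2A) in 106 and 0, with Klrc1 at least 9.70-fold higher. Ccl4, another chemokine, was in 228 Cd8 cells (918 CPM) and 5 Cd4 cells (28.7 CPM), and in 3.98% of B cells. The 4 natural killer genes were found in 8.62% of Cd8 cells and in no Cd4 cell, and their part in these differences was not tested.

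Ifng, interferon gamma, differed less. It was found in 166 Cd8 cells (306.5 CPM) and 16 Cd4 cells (144 CPM), 2.13-fold higher (1.54 to 3.03), and in cells low in tumour RNA its log2 ratio was 0.70, below the 2-fold line. Ly6c2, a surface protein of activated and memory Cd8 cells, was among the 10 largest ratios, at 464 CPM in Cd8 cells and 3.59 CPM in Cd4 cells, 129-fold higher (23.1 to 5113, from 1 UMI in Cd4 cells). Runx3, the factor that fixes the Cd8 fate, was at 187 CPM in Cd8 cells and 89.8 CPM in Cd4 cells. Gm44174, also among the 10, was found in 78 Cd8 cells and no Cd4 cell, and lies between Cd8b1 and Cd8a on the same strand (chromosome 6, 71353035 to 71373284), so its reads may be shared with Cd8a. The fibroblast genes Col3a1, Sparc, Col1a1 and Mgp were also among the 10 and were found in 6 to 12 Cd8 cells each and in no Cd4 cell. Their part in these ratios was not tested.

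Costimulatory and regulatory genes ran the other way. Of 8 costimulation genes 5 were lower in Cd8 cells (list median −1.80), beside 5.01% of all genes tested. Of 19 regulatory genes 10 passed the filter and were lower. The other regulatory genes were mostly too low to be read, and 14 of the 15 with at least 10 UMIs in both subsets together had a log2 ratio below 0 (median −1.86). Foxp3 was found in 3 of the 100 Cd4 cells. Tnfrsf4 (OX40) was found in 5 Cd8 cells (23.8 CPM) and 36 Cd4 cells (413 CPM), 17.3-fold lower (11.6 to 26.7), and Icos in 79 Cd8 cells (80.7 CPM) and 48 Cd4 cells (345 CPM), 4.27-fold lower (3.21 to 5.69). Cd40lg, the helper signal to B cells, was in 4 Cd8 cells and 19 Cd4 cells, 32.7-fold lower (11.4 to 128). Ctla4, an inhibitory receptor, was in 54 Cd8 cells and 41 Cd4 cells, Ikzf2 (Helios) in 27 and 21, and Izumo1r (folate receptor 4) in 8 and 18. Cd28 was in 126 Cd8 cells and 41 Cd4 cells, with a log2 ratio of −0.85 that did not reach 2-fold. Il17a, a cytokine of inflammatory helper cells, was in no Cd8 cell and in 3 Cd4 cells.

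Few naive genes differed by 2-fold between the subsets. Of 12 naive and memory genes none was higher and 2 were lower in Cd8 cells, Bach2 and Ccr7, with a list median of 0.08. Among cells low in tumour RNA 2 were higher and 1 lower, and Bach2, with a log2 ratio of −0.56, was no longer called. Cell cycle genes had 0 of 13 called over all cells and 5 of 9 lower in cells low in tumour RNA, with a median of −0.72 over the 14 measured. Of all genes tested in those cells 12.1% were lower. Lef1 was found in 23.6% of Cd8 cells (165 CPM) and 22% of Cd4 cells (197 CPM), and Tcf7 in 13.8% of Cd8 cells (69.9 CPM) and 17% of Cd4 cells (101 CPM). Of the checkpoint receptors, Pdcd1 (PD-1) was found in 8.43% of Cd8 cells and 9% of Cd4 cells and Lag3 in 4.98% and 6%, differences within the intervals. Tox, a factor linked to exhaustion that other lymphocytes also use, was in 35.4% of Cd8 cells (359 CPM) and 46.0% of Cd4 cells (592 CPM), and B cells held it too. Tumour RNA was present in 17% of Cd8 cells and 23% of Cd4 cells.

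**Figure D3:**
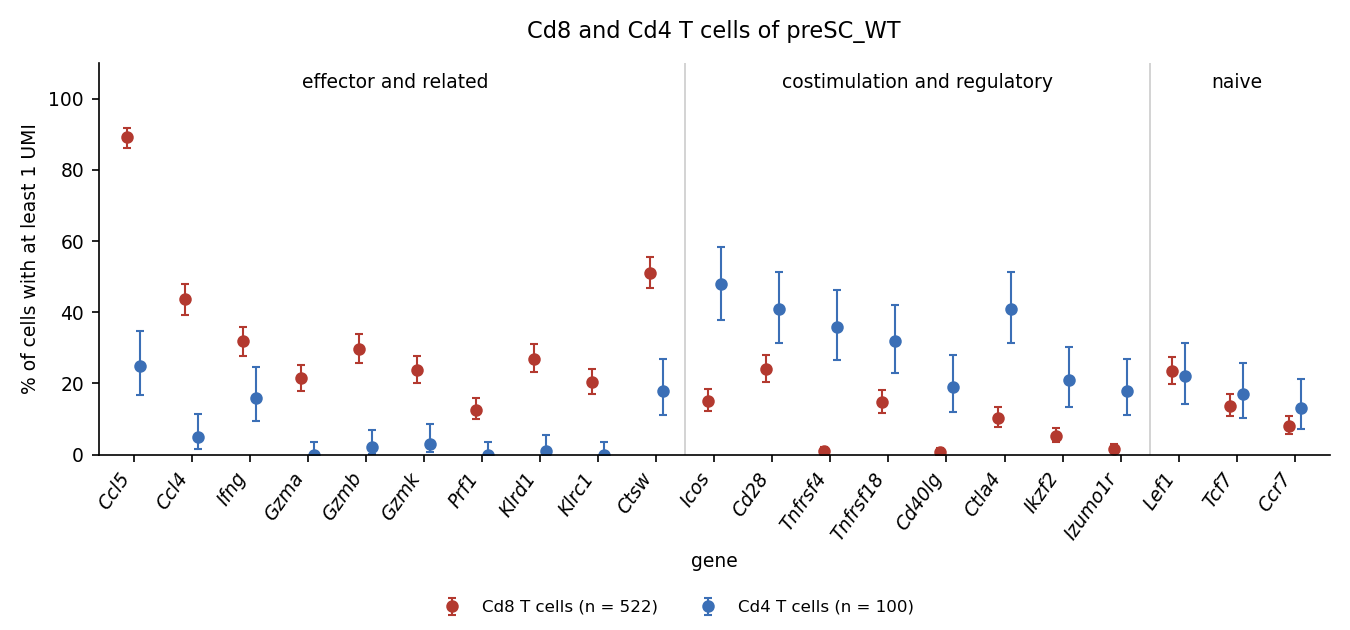
Share of cells with at least 1 UMI of each gene in Cd8 T cells (n = 522) and Cd4 T cells (n = 100) of preSC_WT, with exact 95% binomial intervals. The effector genes shown are found in a larger share of Cd8 cells, the costimulation and regulatory genes in a larger share of Cd4 cells, and the intervals of Lef1, Tcf7 and Ccr7 overlap.

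Foxp3 marked 20 preSC_WT T cells, and was found in 24 of CRPR2 (2.61%) and 25 of RPR2 (0.537%), and in none of 57 in preSC_CracdKO. By 3 over the number of cells, that count of 0 allows about 5.26% of cells with a UMI at their depth. Only 3 of the 20 held Cd4, while 2 held Cd8a and 3 held Cd8b1. They were set against the 97 Cd4 cells without Foxp3. The groups had like depth, with medians of 1671 UMIs in Foxp3-positive and 1678 UMIs in Foxp3-negative Cd4 cells, but tumour RNA was present in 1 of the 20 and in 23 of the 97. B-cell genes were found in 10 of the 20 (323 CPM) and 14 of the 97 (75.7 CPM), with Cd79a and Ms4a1 at 0 in the 20, and erythroid genes in 15% and 3.09%. Their part in the differences was not tested. In Foxp3-positive cells 208 of 2946 genes were called higher (7.06%) and 1103 lower (37.4%), or 504 and 747 once centred on the genes' median of −0.65, and the largest lower ratios were tumour genes such as Krt8. In cells low in tumour RNA 157 of 1677 genes were higher (9.36%) and 411 lower (24.5%), and with cells called positive from 2 UMIs on 121 and 73.

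Most measured regulatory genes were higher in these 20 cells. Of 12 regulatory genes that passed the filter of 19 listed, 9 were higher in Foxp3-positive cells and 1, Nrp1, lower, with a median log2 ratio of 2.18 against −0.29 over all genes. In cells low in tumour RNA 8 of 12 were higher, with a median of 1.12 against 0.02. Of all genes tested 7.06% were higher, and 9.36% in cells low in tumour RNA. The ratios that follow are over all cells. Cells low in tumour RNA held 50458 of 55650 Foxp3-positive UMIs and 115009 of 264041 Foxp3-negative Cd4 UMIs. The T-cell receptor list had a median of 0.39 over all cells and −0.45 in cells low in tumour RNA. The part of tumour RNA in these ratios was not tested. Ikzf2 was found in 18 of 20 Foxp3-positive cells (1833 CPM) and 18 of 97 Foxp3-negative cells (242 CPM), 7.56-fold higher (5.48 to 10.5). Tnfrsf4 was in 18 Foxp3-positive cells (1887 CPM) and 33 Foxp3-negative cells (394 CPM), 4.79-fold higher (3.62 to 6.34), with a log2 ratio of −0.035 when cells were called positive for Foxp3 and Cd4 from 2 UMIs on. Tnfrsf18 (GITR) was in 18 Foxp3-positive and 29 Foxp3-negative cells, 4.48-fold higher (2.98 to 6.72). Il2ra, the high-affinity interleukin 2 receptor chain on which regulatory cells rely, was in 6 Foxp3-positive cells (198 CPM) and 4 Foxp3-negative cells (22.7 CPM), 8.70-fold higher (2.95 to 28.6). Ctla4, through which regulatory cells take ligand from presenting cells, was in 15 Foxp3-positive cells (593 CPM) and 38 Foxp3-negative cells (311 CPM), with a log2 ratio of 0.93 that did not reach 2-fold.

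Other genes of tissue regulatory cells were seen in smaller numbers. Tnfrsf9 (4-1BB) was found in 11 of 20 Foxp3-positive and 20 of 97 Foxp3-negative cells, 3.45-fold higher (2.12 to 5.57), with a log2 ratio of 0.62 in cells low in tumour RNA and of −1.36 with cells called positive from 2 UMIs on. Itgae, an integrin that holds cells in epithelium, was in 7 Foxp3-positive and 6 Foxp3-negative cells, and Areg, a growth factor of tissue repair, in 6 and 12. Il10 was in 3 Foxp3-positive and 4 Foxp3-negative cells, 8 UMIs in each group. Gpr83 and Lrrc32, both known from regulatory cells, were at 0 in the 20. Gzmb was in 7 Foxp3-positive cells (485 CPM) and 1 Foxp3-negative cell (3.79 CPM), 128-fold higher (21.1 to 5245, from 1 UMI in Foxp3-negative cells), and 16 of its 27 UMIs in Foxp3-positive cells lay in 1 barcode.

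Naive genes were low in the Foxp3-positive cells. Of 11 that passed the filter 9 were lower and none higher, with a median log2 ratio of −1.93, and 8 of 10 were lower in cells low in tumour RNA (−2.01). Of all genes tested 37.4% were lower, and 24.5% in cells low in tumour RNA. Tcf7, a naive and stem-like factor, was found in 0 of 20 Foxp3-positive and 17 of 97 Foxp3-negative cells, at least 1.97-fold lower, and Cd40lg in 0 and 19, also at least 1.97-fold lower. Foxp1 was in 2 Foxp3-positive cells (35.9 CPM) and 44 Foxp3-negative cells (462 CPM), 12.9-fold lower (3.48 to 107), and Bach2 in 3 and 30, 5.48-fold lower (1.81 to 27.1). Klf2, which keeps the exit receptor S1pr1 active, was in 11 Foxp3-positive and 53 Foxp3-negative cells with a log2 ratio of 0.12. Proliferation RNA lay in few of the cells. Mki67 was found in 5 of 20 Foxp3-positive and 15 of 97 Foxp3-negative cells (log2 ratio 1.08), and in cells low in tumour RNA in 4 of 19 and 4 of 74 (2.36). Of the 14 cell cycle genes 8 passed the filter over all cells, 4 of them higher and 1 lower, beside 7.06% and 37.4% of all genes tested. In cells low in tumour RNA 7 passed and all were higher, beside 9.36% of all genes tested. The list's median there was 2.17, against 0.02 over all genes. Among the largest ratios, Diaph3 was found in 4 and Hist1h2ae in 5 of the 20, with 63.6% and 55.7% of those UMIs in 1 barcode each.

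**Figure D4:**
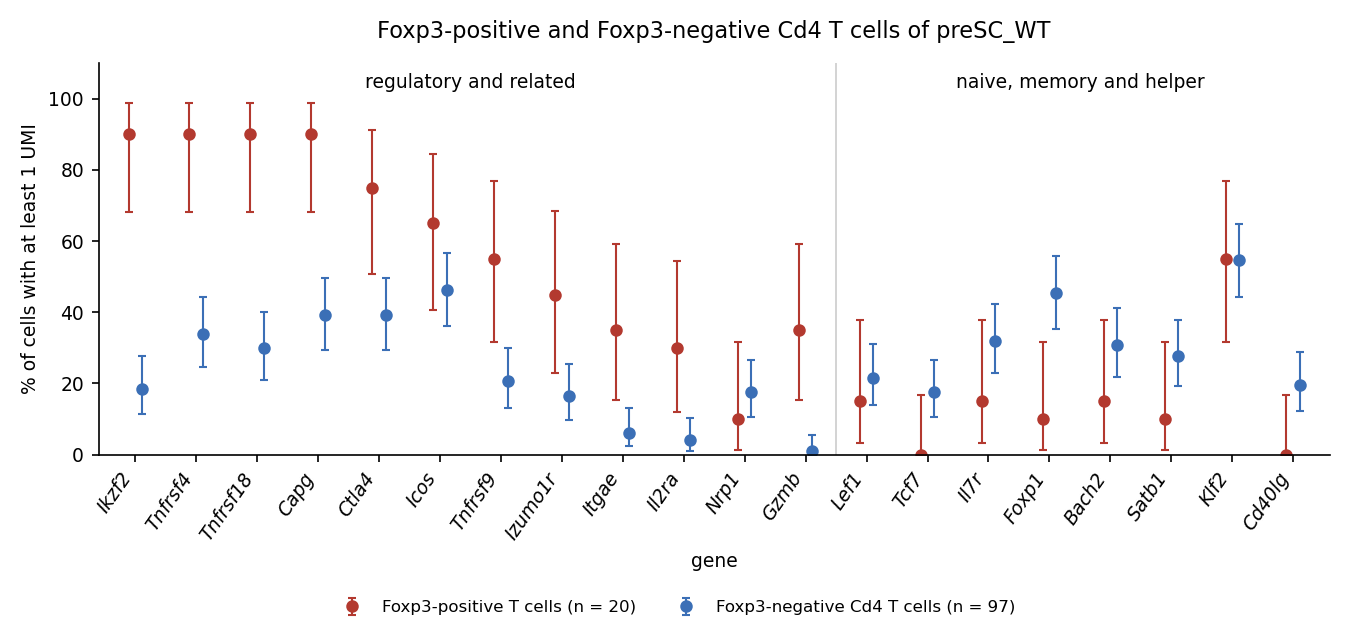
Share of cells with at least 1 UMI of each gene in Foxp3-positive T cells (n = 20) and Foxp3-negative Cd4 T cells (n = 97) of preSC_WT, with exact 95% binomial intervals. Ikzf2, Tnfrsf4, Tnfrsf18 and Capg are each found in 18 of the 20 Foxp3-positive cells, and Tcf7 and Cd40lg in none.

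Nkg7 divided preSC_WT T cells into 796 positive and 531 negative cells with medians of 1402 UMIs and 1221 UMIs and tumour RNA in 15.7% and 19.0%. In Nkg7-positive cells 75 of 3848 genes were called higher (1.95%) and 41 lower (1.07%), or 98 and 32 once centred on the genes' median. The balance turned round to 132 higher and 388 lower with each cell thinned to 1000 UMIs, and to 102 and 176 without barcodes called doublets. Among cells low in tumour RNA 92 of 3267 were higher (2.82%) and 131 lower (4.01%). Effector genes made up 16 of the higher calls, out of 21 that passed the filter, with a median log2 ratio of 1.61 against −0.10 over all genes. Ccl5 was found in 88.2% of Nkg7-positive cells (9204 CPM) and 27.7% of Nkg7-negative cells (1547 CPM), 5.95-fold higher (5.68 to 6.23). Gzma was in 135 Nkg7-positive cells (712 CPM) and 15 Nkg7-negative cells (31.2 CPM), 22.8-fold higher (16.7 to 31.9), and Gzmb in 186 and 29, 7.12-fold higher (5.37 to 9.63). Ifng was in 250 Nkg7-positive cells (319 CPM) and 46 Nkg7-negative cells (79.2 CPM), 4.03-fold higher (3.27 to 5.01). Xcl1, a chemokine that draws cross-presenting dendritic cells, was in 118 Nkg7-positive and 18 Nkg7-negative cells, 9.92-fold higher (6.71 to 15.3). Natural killer genes were found in 10.8% of Nkg7-positive and 3.01% of Nkg7-negative cells.

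Genes of the naive state were lower in Nkg7-positive cells. Lef1 was found in 151 of 796 Nkg7-positive cells (125 CPM) and 184 of 531 Nkg7-negative cells (268 CPM), 2.15-fold lower (1.82 to 2.54), and Bach2, a repressor of effector genes, was 2.49-fold lower (2.13 to 2.93). Ccr7, the receptor that leads cells into lymph nodes, was 2.58-fold lower (1.85 to 3.63). Tcf7 had a log2 ratio of −0.77 and did not reach 2-fold. Of 12 naive genes 3 were lower (median −0.57), and 5 of 14 in cells low in tumour RNA (−0.93), beside 1.07% and 4.01% of all genes tested. The highest ratios of all were globin genes and Krt14, and 97% of the UMIs of Hbb-bs over preSC_WT T cells lay in 1 barcode.

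Lef1 and Nkg7 were not exclusive. Of the preSC_WT T cells 184 held Lef1 only, 151 both, 645 Nkg7 only and 347 neither. Ccl5 was found in 83.4% of cells with both, 89.3% with Nkg7 only and 20.1% with Lef1 only, and at 500 UMIs per cell in 72.8%, 81.7% and 15.2%. Bach2 lay between, at 35.8% with both, 17.1% with Nkg7 only and 58.2% with Lef1 only, and at 500 UMIs in 13.2%, 6.36% and 32.6%. Gzmb was in 7.28% with both, 27.1% with Nkg7 only and 2.17% with Lef1 only. Cells with both were deeper, at a median of 1829 UMIs, against 1324 with Nkg7 only and 1323.5 with Lef1 only, and the part of depth in these shares was not tested.

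Of 26 effector genes 23 were found in a smaller share of the 57 T cells of the library labelled preSC_CracdKO than of those of preSC_WT, and 25 at 500 UMIs per cell. These shares include the 20 preSC_CracdKO barcodes with tumour RNA, of which 7 held Trac, Trbc1 or Trbc2, against 207 of 226 in preSC_WT. Thinning does not take out such barcodes, and this tally was not made in cells low in tumour RNA. It was also not made over all genes, so it has no background to be read against. Over all T cells 443 of 4177 genes were called higher (10.6%) and 663 lower (15.9%) in preSC_CracdKO. Of 2251 in cells low in tumour RNA, 105 were higher (4.66%) and 784 lower (34.8%), with a median over the genes tested of −0.65 on the log2 scale against which those values are to be read. All 21 effector genes that passed the filter were lower (median −2.05 against −0.13 over all genes), and 15 of 22 in cells low in tumour RNA (−1.32 against −0.45). Erythroid RNA differed with the library: Hba-a1, Hbb-bs or Alas2 was found in 24.3% of T cells low in tumour RNA of preSC_CracdKO and in 2.63% of those of preSC_WT, at 208 CPM and 1336 CPM. The 1336 CPM are 2133 UMIs and mostly 1 cell, since 1644 of the 1695 Hbb-bs UMIs of preSC_WT T cells lay in 1 barcode. B-cell genes were found in 18.9% and 8.45% of these cells, with Cd79a and Ms4a1 at 0 in preSC_CracdKO. The part of either in the differences was not tested.

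Ccl5 was found in 33.3% of T cells of preSC_CracdKO (21.4 to 47.1) and 64.0% of preSC_WT (61.3 to 66.6), and at 500 UMIs per cell in 26.3% and 57.6%. Among cells low in tumour RNA, Ccl5 was at 4683 CPM in preSC_CracdKO and 10375 CPM in preSC_WT. Nkg7 was found in 38.6% of preSC_CracdKO (26.0 to 52.4) and 60.0% of preSC_WT, and at 500 UMIs in 7.02% and 38.2%. Nkg7, among cells low in tumour RNA, was in 45.9% and 60.9%, where the intervals overlap. The folds that follow are over all T cells, where barcodes with tumour RNA held 78.3% of the UMIs in preSC_CracdKO and 50.2% in preSC_WT. T-cell receptor genes were lower in 11 of 13 over all T cells and in 2 of 13 in cells low in tumour RNA. The part of tumour RNA in these folds was not tested. Gzma was found in none of 57 T cells of preSC_CracdKO and in 150 of preSC_WT (433 CPM), at least 38.3-fold lower. Xcl1 was found in none and in 136, at least 11.4-fold lower. Ifng was found in 5.26% of preSC_CracdKO (1.10 to 14.6) and 22.3% of preSC_WT (20.1 to 24.6), and at 500 UMIs in 3.51% and 11.5%. Gzmb was in 5.26% of preSC_CracdKO and 16.2% of preSC_WT, and at 500 UMIs in 3.51% and 9.65% (3 UMIs in preSC_CracdKO, 16.5-fold lower, 5.61 to 80.2). Ccl4 was in 2 cells of preSC_CracdKO and 348 of preSC_WT, 73.3-fold lower (20.3 to 606). Among costimulatory genes Cd28 was in 4 cells of preSC_CracdKO and 342 of preSC_WT, 7.97-fold lower (3.39 to 24.7). Tnfrsf4 was in none of preSC_CracdKO and 129 of preSC_WT, at least 10.9-fold lower.

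The naive list was mixed. Of its 14 genes 12 were found in a larger share of T cells of preSC_CracdKO, which were the deeper cells, and 2 in a smaller one. At 500 UMIs per cell 9 were in a larger and 5 in a smaller share. For this tally too no count over all genes was made. Lef1 was found in 42.1% of T cells of preSC_CracdKO (29.1 to 55.9) and 25.2% of preSC_WT (22.9 to 27.7), and at 500 UMIs per cell in 24.6% and 9.87%. Among cells low in tumour RNA, Lef1 reached 56.8% (937 CPM) in preSC_CracdKO and 24.0% (286 CPM) in preSC_WT. Among B cells Lef1 was found in 5.63% of preSC_CracdKO and 1.05% of preSC_WT. Tcf7 was found in 36.8% of preSC_CracdKO (24.4 to 50.7) and 16.1% of preSC_WT (14.1 to 18.1), at 500 UMIs in 17.5% and 5.73%, and in no B cell of either library. Bach2 was found in 61.4% of preSC_CracdKO (47.6 to 74.0) and 28.6% of preSC_WT (26.2 to 31.2), at 500 UMIs in 31.6% and 13.1%, and in B cells, which use it too, in 63.4% and 63.7%. Over all T-cell UMIs the log2 ratios of Lef1, Tcf7 and Bach2 were 0.28, 0.45 and 0.47, and in cells low in tumour RNA 1.71, 1.69 and 1.72. As a list, 1 of 11 naive genes was lower and none higher over all T cells (median −0.36), and 6 were higher and 1, Klf2, lower in cells low in tumour RNA (0.76). Of all genes tested 10.6% were higher and 15.9% lower over all T cells, and 4.66% and 34.8% in cells low in tumour RNA. Klf2 was found in 35.1% of T cells of preSC_CracdKO and 62.8% of preSC_WT, with a log2 ratio of −2.67 in T cells and −2.36 in B cells, and of −1.56 and −1.55 in those low in tumour RNA.

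**Figure D5:**
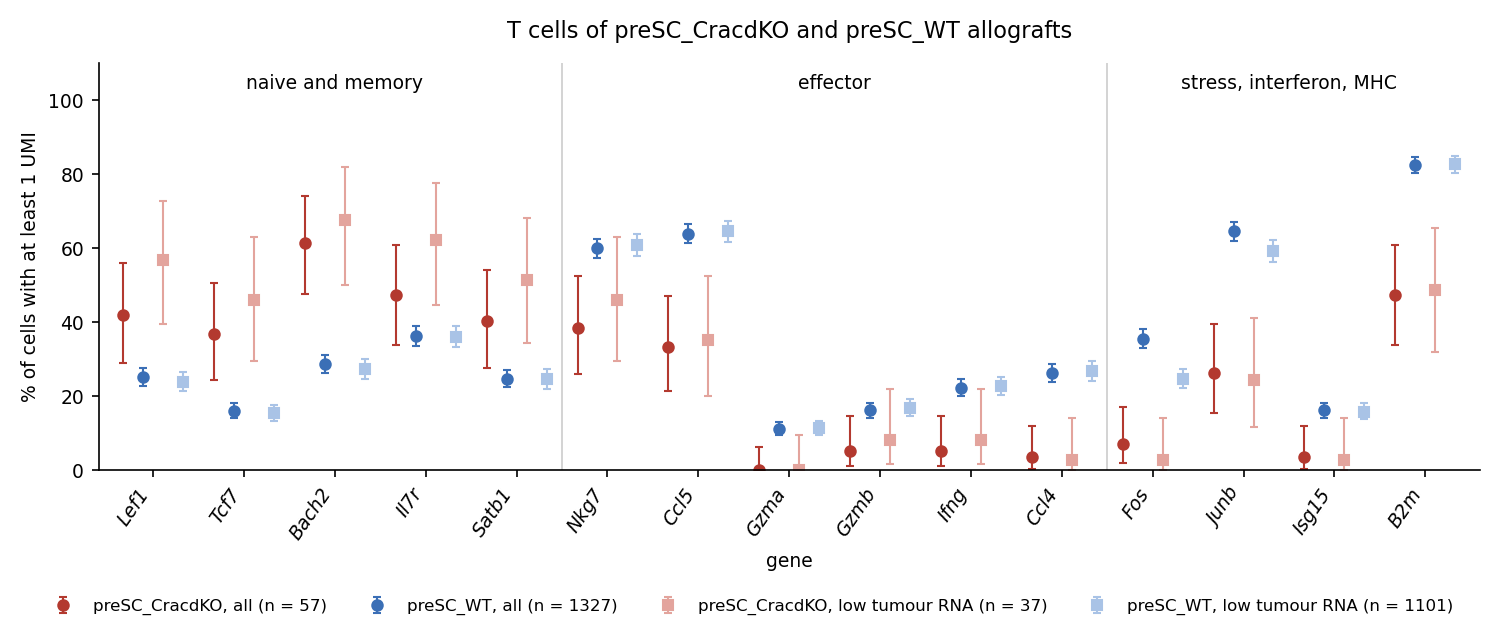
Share of T cells with at least 1 UMI of each gene in preSC_CracdKO and preSC_WT, with exact 95% binomial intervals, for all T cells (dark circles, n = 57 and n = 1327) and for those low in tumour RNA (pale squares, n = 37 and n = 1101). Lef1, Tcf7 and Bach2 lie higher in preSC_CracdKO, and Ccl5, Gzma, Fos and B2m lie lower.

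Most stress and interferon genes that passed the filter were lower in T cells of preSC_CracdKO, and their list medians were also below 0 in its B cells. Of 16 dissociation and stress genes 15 were lower in T cells (median −3.29), and 11 of 14 in cells low in tumour RNA (−1.48). Of all genes tested 15.9% were lower in T cells, and 34.8% in T cells low in tumour RNA. In B cells of the same libraries the stress list's median was −3.17, and −2.16 in those low in tumour RNA. Fos, an immediate-early factor that rises on handling, was found in 7.02% of T cells of preSC_CracdKO and 35.6% of preSC_WT, and in 11.3% and 40.2% of their B cells. Of 9 interferon-stimulated genes 8 were lower in T cells (median −2.74), and 10 of 12 in cells low in tumour RNA (−3.48), with −2.75 and −3.86 in B cells. The B-cell medians rest on 10 and 9 genes, and 5 effector genes gave the same −3.86. With 71 and 54 preSC_CracdKO B cells, and 37 T cells low in tumour RNA, genes of few UMIs can stand at 0. The size of these medians can thus not be read. Isg15 was found in 3.51% of T cells of preSC_CracdKO and 16.2% of preSC_WT. All 12 MHC class I genes that passed the filter were lower in T cells (median −1.97), with −1.71 in B cells. In cells low in tumour RNA 5 of 12 were lower (−0.92), near the 34.8% over all genes tested there (median −0.45 over all genes measured), with −1.05 in such B cells. B2m, the light chain of MHC class I, was found in 47.4% of T cells of preSC_CracdKO and 82.6% of preSC_WT, at 500 UMIs in 14.0% and 46.7%, and in 33.8% and 61.4% of their B cells. The naive list had a median of 0.76 in T cells low in tumour RNA and −0.03 in such B cells. T-cell receptor genes were lower in 11 of 13 over all T cells and in 2 of 13 in cells low in tumour RNA (median −0.39). Beside them stood 15.9% and 34.8% of all genes tested. The median of the cell cycle genes was 0.35 over all T cells and −4.06 in cells low in tumour RNA. The 37 preSC_CracdKO cells low in tumour RNA held 57660 UMIs, where 1 UMI is 17.3 CPM. A gene of few UMIs can stand at 0 there, so no change of direction can be read from this median. S100a6, a calcium-binding protein counted among the effector genes, was lower in both, with a log2 ratio of −2.37 in T cells and −4.07 in B cells.

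Of the subsets in preSC_CracdKO, 21 of 57 cells were Cd8 (36.8%, 24.4 to 50.7), 1 was Cd4 and 35 held neither, so the Cd8 share did not differ from the 39.3% of preSC_WT beyond counting error. Of those low in tumour RNA, 16 of 37 were Cd8. With 1 Cd4 and no Foxp3 cell, neither subset of preSC_CracdKO could be described.

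Beside lung T cells chosen by the same rule, those of preSC_WT were richer in effector RNA. Tissue, tumour model, library, Cell Ranger version and the version of the gene table differed together here, and 30406 feature IDs were shared. The labels give no alleles for the lung samples, so whether Cracd differed too cannot be told from them. Thymocyte genes (Rag1, Rag2, Dntt or Ptcra) were found in 66.8% of RPR2 T cells, 0.109% of CRPR2 and 0.226% of preSC_WT. Cd4 and Cd8 UMIs together were found in 26.4% of RPR2, 0.218% of CRPR2 and 0.151% of preSC_WT T cells. The RPR2 values below are thus largely of cells with thymocyte RNA, and their part in the differences was not tested. In preSC_WT 925 of 3725 genes were called higher (24.8%) and 114 lower (3.06%) than in CRPR2, or 609 and 229 once centred on the median over the genes tested, a log2 ratio of 0.39. Among cells low in tumour RNA 684 of 3055 were higher (22.4%) and 84 lower (2.75%). Of 21 effector genes 13 were higher and 2, S100a4 and S100a6, lower, with a median of 1.02 against 0.39 over all genes. Ccl5 was found in 64.0% of preSC_WT, 17.1% of CRPR2 and 3.87% of RPR2 T cells, and at 500 UMIs per cell in 57.6%, 11.8% and 2.77%. Gzmb was found in 16.2% of preSC_WT, 2.72% of CRPR2 and 1.10% of RPR2 T cells, and at 500 UMIs in 9.65%, 0.871% and 0.301%. Ifng was found in 22.3% of preSC_WT, 7.83% of CRPR2 and 1.89% of RPR2 T cells. Gzma did not follow this order, at 11.3% in preSC_WT, 3.70% in CRPR2 and 15.1% in RPR2. Tox was found in 38.2% of preSC_WT (414 CPM over the shared features) and 9.79% of CRPR2 (40.1 CPM) T cells, 10.3-fold higher (8.53 to 12.6).

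Few naive genes passed the 2-fold line, with 1 higher and 2 lower of 14 (median −0.41), beside 24.8% and 3.06% of all genes tested. Tcf7 was found in 16.1% of preSC_WT, 34.7% of CRPR2 and 70.2% of RPR2 T cells, and at 500 UMIs in 5.73%, 9.58% and 32.9%. Il7r, the receptor for the survival factor interleukin 7, was found in 36.2% of preSC_WT, 54.5% of CRPR2 and 12.6% of RPR2 T cells. Dapl1, high in naive Cd8 cells, was 3.90-fold lower in preSC_WT than in CRPR2 (3.08 to 4.97). Rag1, which cuts receptor genes in developing thymocytes, was found in no T cell of preSC_WT (the exact interval for 0 of 1327 cells reaches 0.278%) or CRPR2 and in 52.2% of RPR2 T cells. The genes with the largest ratios also differed between the B cells of the same libraries: Gphn had a log2 ratio of 5.95 in T cells and 6.09 in B cells, Cmss1 6.17 and 6.18, and Rnasek −6.81 and −6.89. Scgb1a1, the secretoglobin of airway club cells, was found in no T cell of preSC_WT and in 570 of CRPR2. The part of the gene table and of tissue RNA in these ratios was not tested.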

How the data were processed

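Tumours were minced, digested with collagenase, elastase and DNase, depleted of red and dead cells and run on 10x Chromium 3' chemistry, per the labels' protocols. The authors deposited raw UMI counts for each gene in each barcode, made with Cell Ranger, version 5.0.0 for the allografts and 6.1.2 for the lungs per the file headers. Scanpy 1.8.2, Seurat 1.8.2, Cell Ranger 6.1.2 and the build mm10 stand in the submitters' processing notes. The matrices had 31053 features for allografts and 32285 for lungs.

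Python 3.11.15, numpy 2.4.6, scipy 1.17.1, pandas 2.3.3, scanpy 1.11.5, anndata 0.12.19 and matplotlib 3.10.9 were used. UMIs were summed over the cells of a group, scaled to CPM, and compared as log2 ratios with a pseudocount of 1 CPM. A gene was counted as higher or lower at 2-fold with 50 CPM and 10 UMIs in the higher group, leaving out defining, mitochondrial and ribosomal protein genes. Fold intervals are exact conditional binomial, and shares exact Clopper-Pearson at 95%. A group at 0 was set at a floor of 3 UMIs over the group. Where a share is given as 3 over the number of cells, the exact upper bound lies higher. List medians are over members with at least 10 UMIs in both groups together. The named genes were list members and the 10 largest ratios per direction. The members and lists were chosen with earlier results of these data known; the B-cell comparisons and the tumour-RNA limit were chosen after seeing the data. Depth ran between 42592323 and 110576113 UMIs per library. Some list members, including 1 of the tumour markers, entered sums and counts and are not reported by name here. Doublets were left in, and removed with Scrublet as an alternative; it called none in preSC_CracdKO and CRPR2, where the 12.9% and 9.57% of barcodes with the highest scores were removed instead, against 1.93% called in preSC_WT. The calling step was run on simulated sums with known folds, drawn independently for each gene. UMIs that cluster in few barcodes were not simulated, so that run cannot check the calls and intervals against such clustering. With 1 library per group no p-value was computed.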

Additional observations from a re-analysis of the deposited data

How the results depend on the processing

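Each choice below was changed alone. Of the shares and gene counts answering a comparison, 48 moved beyond their counting interval or 1.5-fold and 73 did not. The share of T cells in preSC_CracdKO was 0.217% from 3 UMIs of the T-cell genes on, 1.76% from 1 UMI, 0.198% without UMIs of 9 further genes of other cells and 0.229% when low in tumour RNA; in preSC_WT these were 5.46%, 9.16%, 5.15% and 5.96%, with 6.70% from 500 genes on and 6.76% without doublets. In preSC_WT the Cd8 share was 43.0% and 36.1% from 3 and 1 UMIs, 42.5% from 500 genes, 20.1% when positive from 2 UMIs, and 29.6% and 19.0% thinned to 1000 and 500 UMIs. For Cd4 the last 3 were 1.06%, 4.10% and 2.19%. Foxp3 was 0.603% both when positive from 2 UMIs and thinned to 500 UMIs. Nkg7 was 63.4% and 55.3% from 3 and 1 UMIs, 44.5% when positive from 2 UMIs, and 47.3% and 38.2% thinned.

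Genes called between Cd8 and Cd4 cells, 322 as reported, were 657 without the 9 further genes, 597 low in tumour RNA, 750 from 20 CPM on, 4668 with no filter, 1115 when positive from 2 UMIs and 667 thinned to 1000 UMIs. For Foxp3, 1311 as reported, they were 499 without the 9 further genes, 568 low in tumour RNA, 8336 with no filter, 194 from 2 UMIs and 157 thinned. For Nkg7, 116 as reported, they were 214 from 1 T-cell UMI, 278 without doublets, 262 without the 9 further genes, 223 low in tumour RNA, 273 from 20 CPM on, 2161 with no filter and 520 thinned. For preSC_CracdKO over preSC_WT, 1106 as reported, they were 1943 from 20 CPM on and 6539 with no filter, and for preSC_WT over CRPR2, 1039 as reported, 2083 and 4920. Over all settings 907 log2 ratios of named genes stayed within their counting interval, 158 moved beyond it, and Tnfrsf4 (−0.035) and Tnfrsf9 (−1.36) reversed between Foxp3-positive and Foxp3-negative cells when positive from 2 UMIs. The cause of these shifts was not tested. No paired analysis was possible because each group is 1 library, which also leaves no replicate to leave out. Depth limits which cells can be given a subset, and the Cd4, Foxp3 and preSC_CracdKO values rest on 100, 20 and 57 cells.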

Other observations

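A small group of T cells held gamma-delta receptor RNA. Trdc, the constant chain of the delta receptor (chromosome 14, 54142851 to 54148868), was found in 21 of the 1327 T cells of preSC_WT (1.58%, exact interval 0.982 to 2.41). None of the 21 held Trac, Cd4, Cd8a or Cd8b1, and 16 held Trbc2. Cd163l1 (SCART1), a scavenger receptor of gamma-delta cells that make interleukin 17, was found in 9 of them, and Blk, a kinase of the same cells, in 6. Il17a was found in 1 and Nkg7 in 10. In preSC_CracdKO Trdc was found in 4 of 57 T cells. These groups were chosen after their values were seen.

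RNA of the Y-linked genes Ddx3y, Eif2s3y, Uty and Kdm5d was more abundant in T cells than in tumour cells. It stood at 75.4 CPM in T cells of preSC_CracdKO and 141 CPM in T cells of preSC_WT. Barcodes with at least 10 UMIs of the 5 tumour markers had 2.02 CPM in preSC_CracdKO and 8.85 CPM in preSC_WT. Xist was at 1 UMI in T cells of preSC_CracdKO and at 0 UMIs in those of preSC_WT. The labels give no sex for the hosts or for the preSC line.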
